A study of Mus musculus with 54 samples.

Results

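The 47 genes described here encode acute-phase and coagulation proteins that the liver secretes into blood plasma. They were chosen by name: each row of the deposited table whose gene symbol equals 1 of the 47 listed symbols is a member, and all 47 were found, on 1 row each, among 20162 rows of the table. The rule itself uses no measured value of these mice. All 47 also passed the filter on low values, which left 11431 rows.

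Liver RNA came from 54 wildtype C57BL/6J male mice that ate a high-fat diet from the age of 8 weeks and took 1 gelatin pellet every morning for 20 weeks. The pellets carried di-isononyl phthalate (DINP, a plasticizer) at doses of 1.5, 15 or 150 mg/kg body weight per day (below mg/kg) in 13, 13 and 14 mice, and 14 control mice received the placebo pellet. The high-fat diet, single housing, the pellet vehicle and the perfusion with buffer before sampling were shared by every group, so that no lean mice and no females enter any comparison. The medial lobe was sequenced with 3′ mRNA libraries, which read the last part of each polyadenylated transcript. The question asked here is how the transcripts of these plasma proteins stood at each dose against control, and between the doses.

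Hepatocytes make most of the plasma proteins that respond to inflammation and most of the clotting factors. In the acute-phase response, interleukin-6 and interleukin-1 from activated macrophages act on hepatocytes through STAT3, NF-kB and the C/EBP factors. Serum amyloid A, haptoglobin, orosomucoid and fibrinogen then rise, while the negative acute-phase proteins, such as albumin and transthyretin, fall. The clotting factors circulate as inactive precursors that cleave each other in a chain ending with thrombin and fibrin; prothrombin and the factors VII, IX and X need vitamin K for their maturation. Antithrombin, protein C and protein S restrain this chain, and plasmin, made from plasminogen, dissolves the clot. In mice, serum amyloid P and serum amyloid A are the strong responders, whereas C-reactive protein, encoded by Crp, responds little.

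The deposited values behave as TPM (transcript abundances corrected for length) that were rounded and then scaled between samples, and they are given below simply as values. A difference between groups is a log2 fold change on the log2(value + 1) scale, given ± its standard error, with an adjusted p from limma over all 11431 rows; a member passed where this was under 0.05. The values do not keep the read depth, so no counting error can be given. Since bulk tissue was sequenced, fewer hepatocytes and less RNA per hepatocyte cannot be told apart in any difference below. Levels are not compared between different genes, because TPM are divided by transcript length although 3′ libraries read only the end of a transcript.

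10 of the 54 libraries stood apart from the rest in the rows that are not members. When the libraries were clustered on these rows into 4 clusters, the largest held 44 libraries, and outside it lay 6 of the 13 at 15 mg/kg, 3 of the 14 control libraries and 1 of the 14 at 150 mg/kg, but none at 1.5 mg/kg. Their median correlation with all other libraries was 0.909 to 0.947, against 0.946 to 0.961 for the 44 others. The labels give no batch. Each comparison is therefore also given without these 10 libraries, a choice made after the data were seen, and their part in the results was not tested beyond that. The hepatocyte markers Alb, Apoa1, Ttr, Cyp2e1 and Cps1 were above 0 in every mouse, and their sum overlapped between all groups. The neutrophil genes Cxcr2, Ngp and Camp were at 0 in 53 of 54 mice each and Retnlg in 41, whereas S100a8 and S100a9 were at 0 in 2 and 1. The sum of the 6 neutrophil markers in the table stayed between 2.96 and 39.0 in all 54 mice.

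26 of the 47 members lie in 9 clusters on the GRCm38 genome (GENCODE M21, members less than 200000 bases apart). The 3 fibrinogen genes Fgg, Fga and Fgb share chr3:83007724-83049863, and Saa4, Saa1 and Saa2 share chr7:46727998-46754313. On chromosome 12, the 5 genes Serpina1a to Serpina1e span chr12:103728156-103958975, and Serpina3k, Serpina3m and Serpina3n span chr12:104338486-104414329. Itih4, Itih3 and Itih1 lie together at chr14:30886476-30943289, and Ambp with Orm1 and Orm2 at chr4:63143275-63365878. 8 members overlap another annotated gene on the same strand, among them Serpina1b with Serpina1d and Serpina3k with Serpina3m, and 8 overlap a gene on the opposite strand, among them Cp, Plg, Fgg and Pzp; whether the counting used the strand is not given in the sources used here. The last 300 bases of the transcripts were 93.3% identical between Saa1 and Saa2, 97.7% between Orm1 and Orm2 and 92.7% to 96.3% between the Serpina1 genes, so that the split of reads within these families is uncertain and their sums are given as well.

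Against control, 12 of the 47 members passed at 1 dose or another, and nearly all of these calls were at 15 mg/kg. At 1.5 mg/kg 1 member passed, Cp, which is 2.13% of the members beside 1.2% of all rows tested. At 15 mg/kg 11 members passed, 7 higher (Pzp, Itih4, Ambp, Serpina3n, F11, Proc and Itih2) and 4 lower (F9, Fgb, Plg and F12), or 23.4% of the members beside 14.2% of all rows; of all rows, 7.57% were called higher and 6.61% lower. At 150 mg/kg no member passed, beside 2.17% of all rows; 7 members had an unadjusted p under 0.05 in limma, and other settings called 0 to 2 members. Of the 11 calls at 15 mg/kg, Pzp and F11 were beyond a log2 fold change of 0.5, F11 at a low mean value of 4.72. They were 4.26% of the members, beside 3.72% of all rows called beyond this limit. The 47 members had a median log2 fold change of 0.061, 0.048 and -0.014 at the 3 doses, and all rows had 0.0028, -0.0010 and -0.0081. Rescaling the samples to the same sum, or quantile normalization, changed the 7 higher and 4 lower calls at 15 mg/kg to 5 and 5. Without the 10 libraries that stood apart, 5, 7 and 2 members passed at the 3 doses, beside 2.88%, 4.6% and 3.09% of all rows. Of the 11 members called at 15 mg/kg, 3 passed both times: Pzp, Serpina3n and Proc. Of the other settings, counting this one, none ended the call of Pzp, 1 of 12 ended that of Ambp, of Itih4 and of Serpina3n, 2 that of Proc, 2 of 11 that of F11, 3 of 12 that of F12, 5 those of F9, Fgb and Plg, and 6 that of Itih2.

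**Figure D1:**
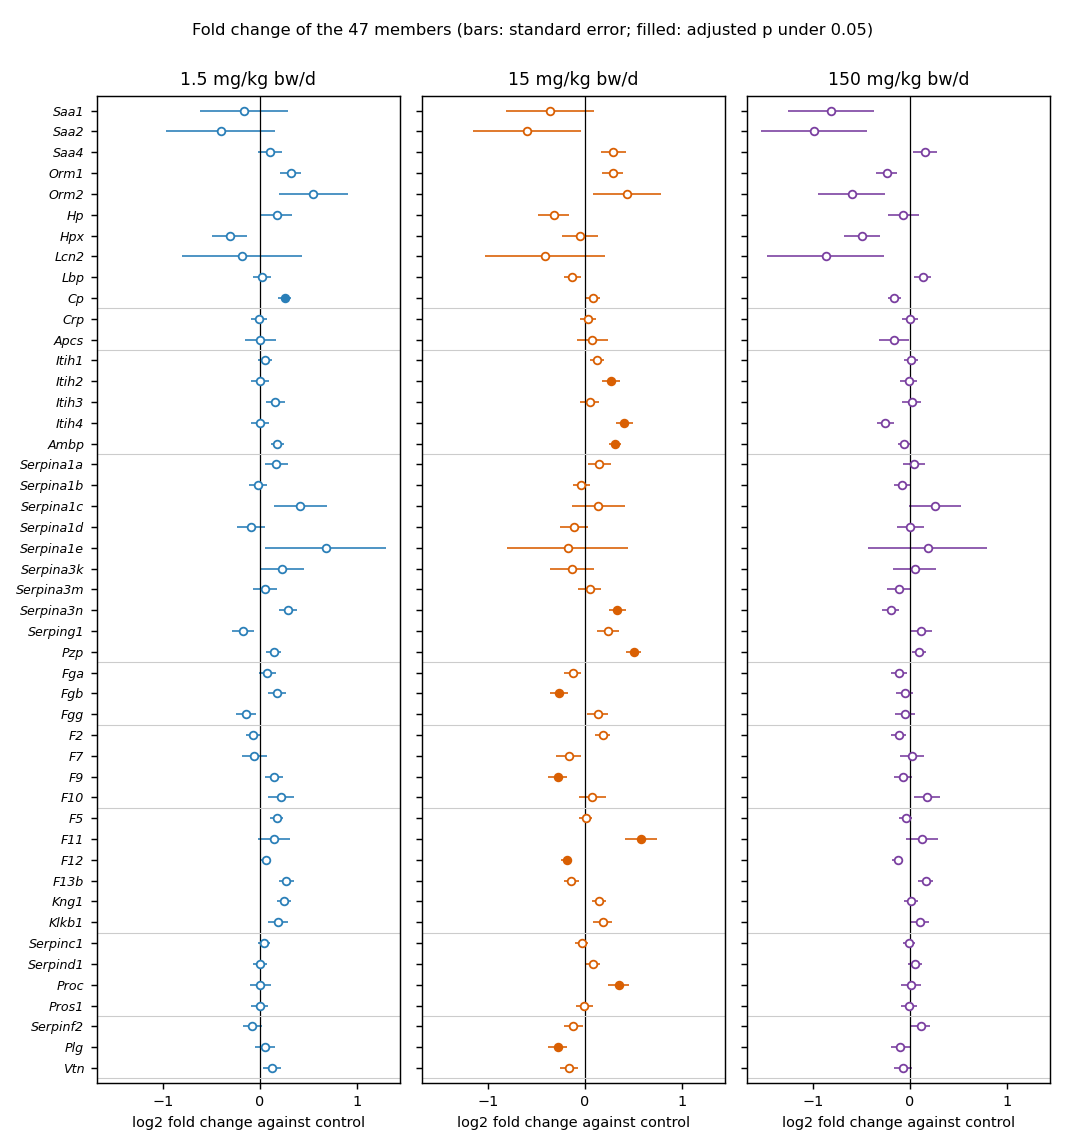
Log2 fold change of each of the 47 members (rows, ordered by role and separated by grey lines) against control at 1.5, 15 and 150 mg/kg, with bars of 1 standard error; filled points have an adjusted p under 0.05. 1 member is filled at 1.5, 11 at 15 and none at 150 mg/kg, and Saa1, Saa2, Lcn2 and Serpina1e have the widest bars.

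In the inter-alpha-inhibitor family 3 of 5 members rose at 15 mg/kg with all libraries, and none passed there without the 10 that stood apart. Itih1 to Itih3 encode heavy chains, and Ambp the light chain bikunin, of a protease inhibitor that binds hyaluronan. Itih4 encodes a related protein that is a known acute-phase protein. All 5 had positive fold changes at 15 mg/kg, beside 5698 of all 11431 rows, of which 7.57% were called higher. After rescaling to the same sum 4 of 5 were positive, beside 4830 of all rows. With quantile normalization or rescaling 2 of the 5 passed. Itih4 ranged from 231 to 409 in control mice (median 337), 224 to 443 at 1.5 (median 331), 312 to 552 at 15 (median 450.4) and 211 to 336 at 150 mg/kg (median 279). 9 of the 13 mice at 15 mg/kg lay above the highest control mouse, and all 14 mice at 150 mg/kg lay below the control median. Itih4 was therefore higher than control at 15 mg/kg (log2 fold change 0.40 ± 0.088, adjusted p = 0.00102), whereas its lower level at 150 mg/kg did not pass (log2 fold change -0.26 ± 0.086, adjusted p = 0.11). Without the 10 libraries the first of these no longer passed (0.30 ± 0.10, adjusted p = 0.0736) and the second did (-0.29 ± 0.084, adjusted p = 0.0462).

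Ambp, the precursor of bikunin and of alpha-1-microglobulin, ranged from 624 to 806 in control mice (median 686), 653 to 987 at 1.5 (median 789.9), 645 to 1097 at 15 (median 868) and 567 to 780.1 at 150 mg/kg (median 666). Of the mice at 15 mg/kg, 12 of 13 were above the control median and 8 above the highest control mouse (log2 fold change 0.31 ± 0.066, adjusted p = 0.000739; without the 10 libraries 0.25 ± 0.080, adjusted p = 0.057). Itih2 ranged from 105 to 190.2 in control mice (median 134), 95.9 to 180.1 at 1.5 (median 149), 131 to 223 at 15 (median 169.5) and 116 to 179 at 150 mg/kg (median 137). The groups overlapped throughout, and Itih2 rose at 15 mg/kg (log2 fold change 0.27 ± 0.090, adjusted p = 0.0346) in the fit of all 54 libraries but not without the 10 (0.23 ± 0.10, adjusted p = 0.231), and removing 1 mouse ended the call in 8 of 27 cases (adjusted p up to 0.0792, without replicate 8 at 15 mg/kg). Itih1 and Itih3 did not pass at any dose, with fold changes from 0.014 to 0.16.

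Pzp, which encodes a broad protease trap of the alpha-2-macroglobulin family, had the lowest adjusted p of the members at 15 mg/kg. It ranged from 268 to 387 in control mice (median 306), 259.9 to 431 at 1.5 (median 344), 318 to 576 at 15 (median 446) and 289 to 400.1 at 150 mg/kg (median 327). All 13 mice at 15 mg/kg were above the control median and 9 above the highest control mouse, while the other 2 doses overlapped control almost entirely. The log2 fold change at 15 mg/kg was 0.50 ± 0.077 (adjusted p = 1.07e-05), and it was as large without the 10 libraries (0.51 ± 0.092, adjusted p = 0.000756). This call also held under every alternative setting tried and with any 1 mouse left out. At 1.5 and 150 mg/kg Pzp did not pass (log2 fold change 0.15 ± 0.077, adjusted p = 0.44, and log2 fold change 0.091 ± 0.076, adjusted p = 0.638).

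**Figure D2:**
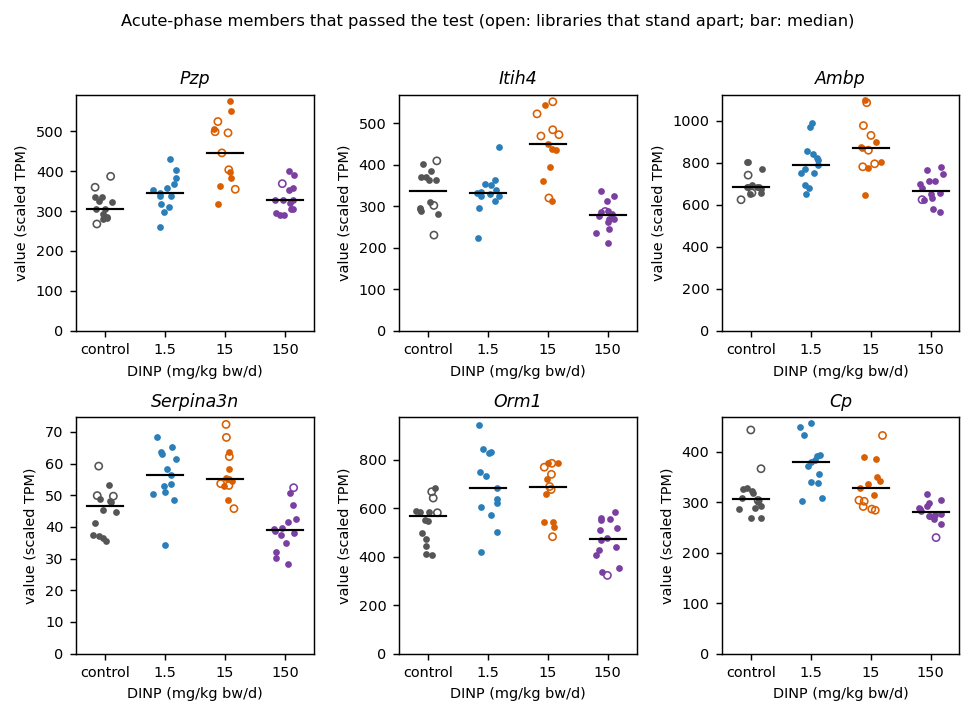
Values of Pzp, Itih4, Ambp, Serpina3n, Orm1 and Cp in each of the 54 mice by dose, with the group median as a bar; open points are the 10 libraries that stood apart, and each vertical axis starts at 0. All 13 values of Pzp at 15 mg/kg lie above the control median of 306, and all 14 values of Itih4 at 150 mg/kg lie below the control median of 337.

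Serpina3n, a mouse counterpart of alpha-1-antichymotrypsin and a responsive acute-phase inhibitor of neutrophil proteases, ranged from 35.6 to 59.2 in control mice (median 46.6), 34.3 to 68.4 at 1.5 (median 56.4), 45.8 to 72.3 at 15 (median 55.1) and 28.1 to 52.4 at 150 mg/kg (median 39.1). 12 of 13 mice were above the control median both at 1.5 and at 15 mg/kg, whereas 11 of 14 were below it at 150 mg/kg. It rose at 15 mg/kg (log2 fold change 0.33 ± 0.089, adjusted p = 0.00775) and, without the 10 libraries, at 15 (0.36 ± 0.10, adjusted p = 0.0355) and at 1.5 mg/kg (0.35 ± 0.089, adjusted p = 0.0161). With all libraries the value at 1.5 mg/kg did not pass (log2 fold change 0.29 ± 0.089, adjusted p = 0.0927), and rescaling to the same sum ended the call at 15 mg/kg.

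The sequences before the start sites of 6 of the 7 members that rose at 15 mg/kg are shown, all for which the table has an entry. They are the 250 bases before the RefSeq start (GRCm38.p6), written 5′ to 3′ on the gene's strand, and capitals mark matches to 5 short motifs searched on both strands: the C/EBP site TTGCNNAA, the interleukin-6 response element CTGGGAA, the STAT site TTCNNNGAA, the NF-kB site GGGNNTTTC and the HNF1 half-site GTTAAT.
Pzp (chr6:128526721-128526970, minus strand): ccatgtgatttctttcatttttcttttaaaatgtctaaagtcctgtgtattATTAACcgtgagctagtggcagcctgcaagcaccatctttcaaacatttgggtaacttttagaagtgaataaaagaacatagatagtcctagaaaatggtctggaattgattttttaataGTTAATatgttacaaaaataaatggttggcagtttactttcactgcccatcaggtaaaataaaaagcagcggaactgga
Itih4 (chr14:30886226-30886475, plus strand): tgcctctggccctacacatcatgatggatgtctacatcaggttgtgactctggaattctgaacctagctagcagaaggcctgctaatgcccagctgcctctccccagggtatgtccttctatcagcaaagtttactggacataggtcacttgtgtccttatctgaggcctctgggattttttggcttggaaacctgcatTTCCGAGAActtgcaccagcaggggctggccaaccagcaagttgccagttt
Ambp (chr4:63154173-63154422, minus strand): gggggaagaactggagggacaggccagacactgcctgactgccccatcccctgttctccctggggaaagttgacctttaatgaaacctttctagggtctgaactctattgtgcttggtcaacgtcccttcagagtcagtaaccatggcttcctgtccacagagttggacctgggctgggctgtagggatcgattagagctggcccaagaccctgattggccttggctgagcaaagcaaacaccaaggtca
Itih2 (chr2:10130684-10130933, minus strand): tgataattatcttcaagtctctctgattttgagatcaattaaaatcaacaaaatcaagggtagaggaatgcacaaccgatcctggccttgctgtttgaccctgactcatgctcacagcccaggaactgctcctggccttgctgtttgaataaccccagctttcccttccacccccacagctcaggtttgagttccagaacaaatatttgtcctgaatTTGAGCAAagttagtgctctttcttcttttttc
Serpina3n (chr12:104406458-104406707, plus strand): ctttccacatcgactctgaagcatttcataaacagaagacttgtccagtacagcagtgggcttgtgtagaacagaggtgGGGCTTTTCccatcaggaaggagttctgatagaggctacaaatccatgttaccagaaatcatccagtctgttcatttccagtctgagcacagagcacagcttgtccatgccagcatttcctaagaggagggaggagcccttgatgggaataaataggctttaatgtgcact
F11 (chr8:45262032-45262281, minus strand): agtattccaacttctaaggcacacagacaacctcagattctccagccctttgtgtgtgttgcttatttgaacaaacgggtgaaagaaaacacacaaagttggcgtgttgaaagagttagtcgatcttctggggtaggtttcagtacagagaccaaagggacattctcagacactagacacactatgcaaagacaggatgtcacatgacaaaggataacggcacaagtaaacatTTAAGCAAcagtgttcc
Pzp holds the HNF1 half-site once on each strand, Itih4 a STAT site, Serpina3n an NF-kB site, and Itih2 and F11 the C/EBP site, while the letters of none of the 5 motifs are in the window of Ambp. Of all 32851 promoters in the table, 6.4% hold the HNF1 half-site, 7% the STAT site and 3.7% the NF-kB site, and of the 38 members found there 12, 6 and 1 do. A member was counted if any of its promoters in the table held the site, whereas the percentages count single promoters, so the figures are not of like units. A match is a run of letters and was not tested as a binding site.

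Among the other reactants, Cp passed at 1.5 mg/kg. Cp encodes ceruloplasmin, the copper-carrying ferroxidase of plasma, and ranged from 268 to 443 in control mice (median 306), 303 to 457 at 1.5 (median 380.1), 284 to 432 at 15 (median 328) and 229.9 to 316 at 150 mg/kg (median 280.0). 12 of 13 mice at 1.5 mg/kg were above the control median and 13 of 14 at 150 mg/kg were below it. The increase at 1.5 mg/kg was small (log2 fold change 0.26 ± 0.068, adjusted p = 0.0426); it passed without the 10 libraries as well (0.32 ± 0.056, adjusted p = 0.000585), but 5 of 12 other settings ended the call, and so did the removal of 1 mouse in 19 of 27 cases (adjusted p up to 0.0795, without replicate 9 of the 1.5 mg/kg group). At 150 mg/kg it did not pass (log2 fold change -0.16 ± 0.067, adjusted p = 0.22).

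Orm1, the main gene of orosomucoid (alpha-1-acid glycoprotein), ranged from 408 to 683 in control mice (median 566), 419 to 943 at 1.5 (median 682), 482 to 787 at 15 (median 689) and 322 to 582 at 150 mg/kg (median 473). 6 and 7 of the 13 mice at 1.5 and 15 mg/kg lay above the highest control mouse, and 4 of 14 at 150 mg/kg lay below the lowest. None of the 3 doses passed against control (log2 fold change 0.32 ± 0.11, adjusted p = 0.149 at 1.5, log2 fold change 0.29 ± 0.11, adjusted p = 0.0594 at 15 and log2 fold change -0.24 ± 0.10, adjusted p = 0.262 at 150 mg/kg). The sum of Orm1 and Orm2 had medians of 578 in control mice and 693, 701 and 478 at the 3 doses, in the same order as Orm1. Orm1 made up most of this sum (control means 547 for Orm1 and 16.6 for Orm2), so the sum largely repeats it.

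Haptoglobin, the hemoglobin scavenger from Hp, ranged from 491 to 1605 in control mice (median 868), 676 to 1686 at 1.5 (median 1039), 370.4 to 1173 at 15 (median 728) and 606 to 1321 at 150 mg/kg (median 869). The lowest mouse was at 15 mg/kg, but the groups overlapped and no dose passed (log2 fold change -0.32 ± 0.16, adjusted p = 0.185 at 15 mg/kg). Lbp, which hands bacterial lipopolysaccharide to immune cells, ranged from 22.1 to 32.2 in control mice (median 25.8), 18.8 to 37.2 at 1.5 (median 28.2), 18.1 to 36.3 at 15 (median 23.4) and 23.0 to 40.6 at 150 mg/kg (median 29.1) and did not pass at any dose. Crp ranged from 91.0 to 191 in control mice (median 145), 108 to 178 at 1.5 (median 136), 103 to 192 at 15 (median 136) and 115 to 162 at 150 mg/kg (median 140.0). Its 4 groups lay almost on top of each other, with fold changes from -0.0076 to 0.030, and the second pentraxin gene, Apcs (serum amyloid P), did not pass either, with fold changes from -0.17 to 0.078. Saa4, the constitutive serum amyloid A, had group medians of 68.0, 74.2, 86.0 and 69.4 and fold changes from 0.11 to 0.29, none of which passed.

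Hpx, which encodes the heme carrier hemopexin, depended at 15 mg/kg on the libraries that stood apart. It ranged from 467 to 935 in control mice (median 618), 394 to 848 at 1.5 (median 499), 347 to 2122 at 15 (median 451) and 346 to 782 at 150 mg/kg (median 449). The 6 libraries at 15 mg/kg that stood apart held 696 to 2122 and the other 7 held 347 to 451, with no overlap. With all libraries Hpx was near control at 15 mg/kg (log2 fold change -0.047 ± 0.18, adjusted p = 0.906) and lower, short of the threshold, at 150 mg/kg (log2 fold change -0.49 ± 0.18, adjusted p = 0.156). At 150 mg/kg, 13 of 14 mice lay below the control median and 10 below the lowest control mouse. With all libraries kept, Hpx passed there with quality weights, with the Wilcoxon rank-sum test and in a fit of only the 2 groups. Hpx was lower at both 15 and 150 mg/kg once the 10 libraries were left out (-0.57 ± 0.12, adjusted p = 0.00279, and -0.42 ± 0.10, adjusted p = 0.0113).

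5 members varied most between mice: Serpina1e, Lcn2, Saa2, Saa1 and Orm2. The standard deviation within groups was 1.68, 1.66, 1.50, 1.21 and 0.95 on the log2 scale for these 5, against a median of 0.26 over the 47 members and 0.33 over all rows. Saa1 and Saa2 encode the inducible serum amyloid A proteins and Lcn2 encodes lipocalin-2, which withholds iron from bacteria; these and Orm2 are classic targets of interleukin-6 and interleukin-1 in hepatocytes. Saa1 ranged from 54.7 to 933 in control mice (median 157), 34.3 to 2721 at 1.5 (median 75.1), 64.1 to 651 at 15 (median 109.9) and 40.6 to 254 at 150 mg/kg (median 103). Saa2 ranged from 20.3 to 570.3 in control mice (median 79.4), 11.5 to 1606 at 1.5 (median 29.9), 12.2 to 425 at 15 (median 43.8) and 11.7 to 181 at 150 mg/kg (median 49.8). Lcn2 ranged from 3.04 to 113 in control mice (median 6.48), 0 to 62.6 at 1.5 (median 4.06), 0.952 to 145 at 15 (median 5.53) and 0 to 18.8 at 150 mg/kg (median 6.52). In each of these 3 genes the mice at 1.5 mg/kg fell into a low and a high set with a wide gap between. No mouse at 150 mg/kg reached the value of the highest control mouse. The fifth highest control values, 186.8, 96.4 and 7.94, were below the highest at 150 mg/kg. Control replicates 8 and 9, among the 5 highest control mice for all 3 genes, were libraries that stood apart.

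At 1.5 mg/kg, 8 mice had a Saa1 value of up to 93.4 and the other 5 had at least 402, while Lcn2 was at most 4.20 in 8 mice and at least 45.6 in 5. The 5 highest mice were the same animals (replicates 1, 4, 9, 10 and 13) for Saa1, Saa2, Lcn2, Orm2 and Hp. The same 5 libraries had the lowest sums of all values at 1.5 mg/kg (849922 to 915170, against 948501 to 1005966 in the others). Control replicates 6, 8, 9 and 10, among the 5 highest control mice for Saa1, likewise had the lowest control sums (747258 to 911741). Whether the split into sets is tied to these sums was not tested. For Orm1, 4 of these 5 mice were among the highest 5, and for Serpina3n 3 were. At 150 mg/kg the highest mouse had 254 for Saa1, 181 for Saa2 and 18.8 for Lcn2, and the highest control mouse had 933, 570 and 113. At 150 mg/kg neither Saa1 (log2 fold change -0.81 ± 0.44, adjusted p = 0.415), Saa2 (log2 fold change -0.99 ± 0.55, adjusted p = 0.425) nor Lcn2 (log2 fold change -0.87 ± 0.61, adjusted p = 0.552) passed, and none of the 3 passed at the other doses. The sum of Saa1 and Saa2 had group medians of 238, 101, 152 and 159 and highest values of 1503, 4328, 1077 and 392.

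Orm2 ranged from 6.08 to 78.7 in control mice (median 10.8), 6.87 to 95.7 at 1.5 (median 12.6), 7.14 to 87.7 at 15 (median 14.2) and 3.08 to 17.6 at 150 mg/kg (median 7.10). The groups overlapped widely and no dose passed against control (log2 fold change 0.55 ± 0.35, adjusted p = 0.547 at 1.5, log2 fold change 0.43 ± 0.35, adjusted p = 0.455 at 15 and log2 fold change -0.60 ± 0.34, adjusted p = 0.442 at 150 mg/kg). How Saa1 varied with the other members within groups was tested next. Of 138 relations to Saa1 (46 members in 3 groups, adjusted together), Saa2 had Pearson's r of 0.997 in control mice (Spearman's rho 0.969), 0.945 at 15 mg/kg (rho 0.956) and 0.953 at 150 mg/kg (rho 0.934), with permutation p-values adjusted to 0.000986 or less. For Lcn2, r was 0.940, 0.846 and 0.809 (rho 0.912, 0.681 and 0.742), with adjusted permutation p-values of 0.00069, 0.0064 and 0.0058 for r and 0.000345, 0.0887 and 0.0331 for rho. Orm2 had r of 0.847, 0.919 and 0.664 (rho 0.512, 0.841 and 0.679), with adjusted permutation p-values of 0.00448, 0.00069 and 0.0355 for r and 0.202, 0.0122 and 0.0803 for rho, so that both passed at 15 mg/kg and the rank correlation did not in control mice or at 150 mg/kg. Leaving out the 2 mice farthest from the median of Saa1 gave r of 0.989, 0.839 and 0.918 for Saa2, of 0.827, 0.497 and 0.728 for Lcn2 and of 0.605, 0.755 and 0.646 for Orm2. Without the libraries that stood apart r was 0.995, 0.878 and 0.958 for Saa2, 0.920, 0.633 and 0.819 for Lcn2 and 0.659, 0.870 and 0.747 for Orm2. At 15 mg/kg the relation of Lcn2 to Saa1 thus rested in part on those 2 mice, and Saa1 and Saa2 may share reads. No r is given at 1.5 mg/kg, where the mice fell into separate sets.

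Klkb1, the gene of plasma prekallikrein, ran against Saa1 in all 3 groups. Its r with Saa1 was -0.891 in control mice, -0.830 at 15 and -0.719 at 150 mg/kg (rho -0.815, -0.824 and -0.679), with adjusted permutation p-values of 0.000828, 0.0058 and 0.0237 for r and 0.0122, 0.0134 and 0.0803 for rho. Without the 2 farthest mice r was -0.702, -0.745 and -0.469, so that at 150 mg/kg it rested in part on these mice, and without the libraries that stood apart it was -0.842, -0.644 and -0.726. Over the 46 members the median r was -0.478, -0.495 and -0.329 in these groups, and r was below 0 in 33, 34 and 32 of them; the members share the scaling of each library. Without the 2 farthest mice the median r was -0.039, -0.300 and -0.045, with 27, 35 and 25 of 46 below 0, so that in control mice and at 150 mg/kg it rested on those mice. Without the libraries that stood apart the median r stayed at -0.297, -0.316 and -0.371, with 33, 31 and 32 of 46 below 0. In 5, 7 and 2 of 46 relations both adjusted p-values were under 0.05. The relation of Saa1 to rows outside the members was not computed, so no share over all rows can stand beside these counts. Whether these relations, that of Klkb1 included, are particular to the members was therefore not tested.

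The bases before the start sites of Saa1, Saa2, Lcn2 and Orm2 are shown, with the same motifs in capitals, because these members had the same 5 highest mice at 1.5 mg/kg; for Hp, the fifth such member, the table has no entry.
Saa1 (chr7:46742981-46743230, minus strand): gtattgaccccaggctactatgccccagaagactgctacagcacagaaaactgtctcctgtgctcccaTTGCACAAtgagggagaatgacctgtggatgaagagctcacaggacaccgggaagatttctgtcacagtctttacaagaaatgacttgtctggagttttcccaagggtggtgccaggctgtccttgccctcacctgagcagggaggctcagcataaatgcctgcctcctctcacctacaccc
Saa2 (chr7:46751583-46751832, plus strand): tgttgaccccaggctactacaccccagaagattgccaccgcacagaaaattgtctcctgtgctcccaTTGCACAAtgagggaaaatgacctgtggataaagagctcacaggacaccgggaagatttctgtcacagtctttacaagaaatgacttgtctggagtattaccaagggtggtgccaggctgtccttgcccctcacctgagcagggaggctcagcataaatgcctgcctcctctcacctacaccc
Lcn2 (chr2:32387740-32387989, minus strand): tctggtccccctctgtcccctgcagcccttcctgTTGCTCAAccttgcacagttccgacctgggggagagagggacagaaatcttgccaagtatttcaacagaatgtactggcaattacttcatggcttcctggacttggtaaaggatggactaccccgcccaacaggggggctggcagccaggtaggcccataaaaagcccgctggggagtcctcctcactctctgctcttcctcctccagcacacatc
Orm2 (chr4:63362199-63362448, plus strand): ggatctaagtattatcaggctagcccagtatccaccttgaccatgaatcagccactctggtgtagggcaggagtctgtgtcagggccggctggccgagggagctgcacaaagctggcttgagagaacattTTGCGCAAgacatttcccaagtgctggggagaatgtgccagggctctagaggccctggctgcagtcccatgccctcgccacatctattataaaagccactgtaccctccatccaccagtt
All 4 hold the C/EBP site TTGCNNAA, which starts 182, 183, 216 and 120 bases before the start site in Saa1, Saa2, Lcn2 and Orm2. This site is in 16 of the 38 members found, Hpx, Cp, Fga and Fgb among them, beside 9.6% of all promoters. The interleukin-6 response element was found in 4 members (Apcs, F9, Fgb and Fgg), beside 9.1% of all promoters. Here too members are counted by gene and the percentages by promoter.

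**Figure D3:**
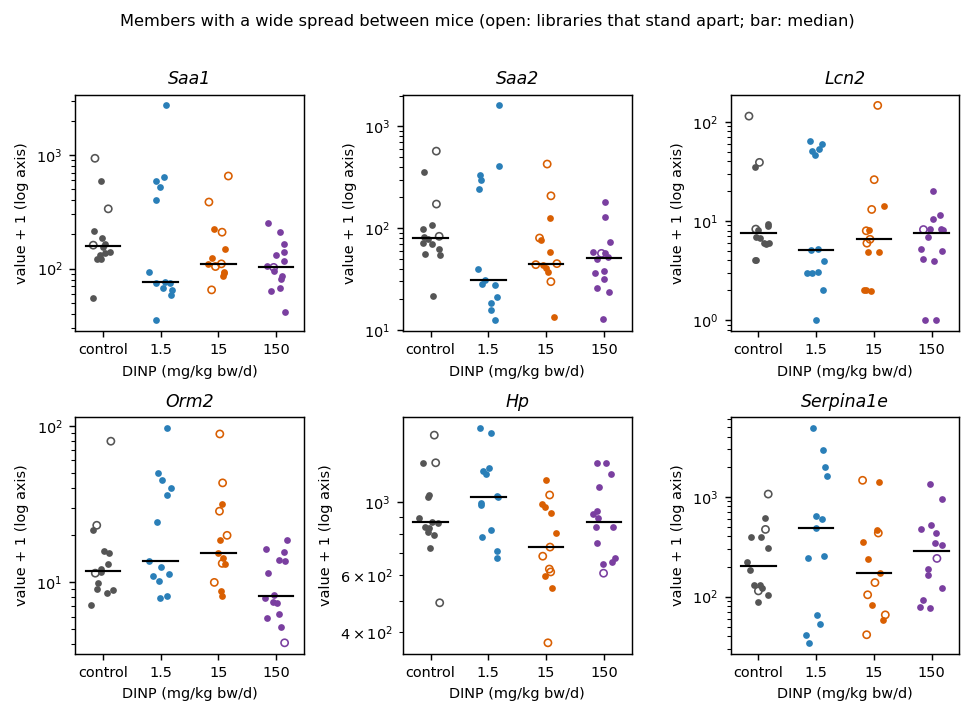
Values plus 1 of Saa1, Saa2, Lcn2, Orm2, Hp and Serpina1e in each mouse by dose, on log axes, with the group median as a bar; open points are the libraries that stood apart. At 1.5 mg/kg, Saa1, Saa2 and Lcn2 each form 2 sets with no mouse between them (Saa1 up to 93.4 and from 402), and at 150 mg/kg the highest Saa1 value is 254.

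The antiproteases other than Pzp and Serpina3n did not pass against control at any dose. Serpina1a, 1 of 5 mouse genes for alpha-1-antitrypsin, the inhibitor of neutrophil elastase, ranged from 908 to 2168 in control mice (median 1637), 1002 to 2499 at 1.5 (median 1959.7), 1102 to 2558 at 15 (median 1766) and 1227 to 1938 at 150 mg/kg (median 1637). The 5 genes summed to group medians of 14369, 17808, 14102 and 14577, and 1.50% to 1.79% of all values of a mouse on average. Serpina1e was the most uneven, from 33.5 to 4854 at 1.5 mg/kg, and its fold changes of 0.68, -0.18 and 0.18 came with a standard error of 0.61 to 0.63. Serpina1b to Serpina1d had fold changes from -0.11 to 0.42. Serpina3k and Serpina3m had fold changes from -0.13 to 0.23, and the sum of the 3 Serpina3 genes had group medians of 1810, 2227, 1648 and 1704. Serping1, the C1 inhibitor of complement and of the contact factors, ranged from 24.4 to 47.8 in control mice (median 33.8), 22.4 to 36.3 at 1.5 (median 30.9), 25.1 to 71.9 at 15 (median 38.8) and 31.0 to 48.2 at 150 mg/kg (median 35.7). The 4 highest mice were at 15 mg/kg, and no dose passed (log2 fold change 0.24 ± 0.11, adjusted p = 0.154 at 15 mg/kg).

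Of the 3 fibrinogen chains, which are assembled into 1 protein, only the beta chain gene passed, and it fell. Fgb ranged from 920.4 to 1366 in control mice (median 1263), 999 to 1834 at 1.5 (median 1309.9), 712 to 1428 at 15 (median 1014) and 835 to 1413 at 150 mg/kg (median 1208). At 15 mg/kg, 4 of 13 mice lay below the lowest control mouse and 12 under the control median (log2 fold change -0.27 ± 0.091, adjusted p = 0.0361). This no longer passed without the 10 libraries (-0.12 ± 0.094, adjusted p = 0.555), and removing 1 mouse ended the call in 11 of 27 cases (adjusted p up to 0.0779, without replicate 6 at 15 mg/kg). Fga ranged from 307 to 444 in control mice (median 359.6), 283 to 521 at 1.5 (median 379.8), 235 to 464 at 15 (median 333) and 254 to 409 at 150 mg/kg (median 339) and Fgg from 547 to 1200.1 in control mice (median 678), 455 to 1009.7 at 1.5 (median 659), 579 to 1130.0 at 15 (median 801) and 468 to 782 at 150 mg/kg (median 708). Fga had a fold change of -0.12 ± 0.088 at 15 mg/kg and Fgg of 0.13 ± 0.11, so the 3 chains did not share a direction there. That the chains differ from each other was not tested. The sum of the 3 chains had group medians of 2323, 2346, 2155 and 2228.

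Of the 4 vitamin K dependent clotting factors, F9 fell at 15 mg/kg. F9, the X-linked gene of factor IX, ranged from 62.7 to 96.4 in control mice (median 82.4), 79.8 to 97.5 at 1.5 (median 90.0), 40.8 to 95.6 at 15 (median 72.5) and 57.5 to 91.7 at 150 mg/kg (median 77.2). 5 of 13 mice at 15 mg/kg lay below the lowest control mouse (log2 fold change -0.28 ± 0.094, adjusted p = 0.0353). The 6 libraries that stood apart held 40.8 to 69.6 and the other 7 held 72.5 to 95.6, and without the 10 libraries the fold change was near 0 (0.0018 ± 0.064, adjusted p = 0.992). Removing 1 mouse ended the call in 8 of 27 cases (adjusted p up to 0.0869, without replicate 8 at 15 mg/kg). F10 (factor X) split the same group in the same way, at 142 to 186 and 249 to 385. It did not pass with all libraries (log2 fold change 0.078 ± 0.14, adjusted p = 0.759) and was higher without the 10 (0.52 ± 0.11, adjusted p = 0.00415). F2, the gene of prothrombin, ranged from 217 to 348 in control mice (median 259), 183 to 323 at 1.5 (median 249), 216 to 371 at 15 (median 315) and 209 to 284 at 150 mg/kg (median 239), and its level at 15 mg/kg did not pass (log2 fold change 0.18 ± 0.076, adjusted p = 0.102). F7, which starts clotting with tissue factor, ranged from 29.8 to 64.3 in control mice (median 53.9), 31.4 to 69.3 at 1.5 (median 51.6), 19.5 to 60.4 at 15 (median 48.6) and 38.3 to 67.9 at 150 mg/kg (median 50.8), with fold changes from -0.17 to 0.021, none of which passed.

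**Figure D4:**
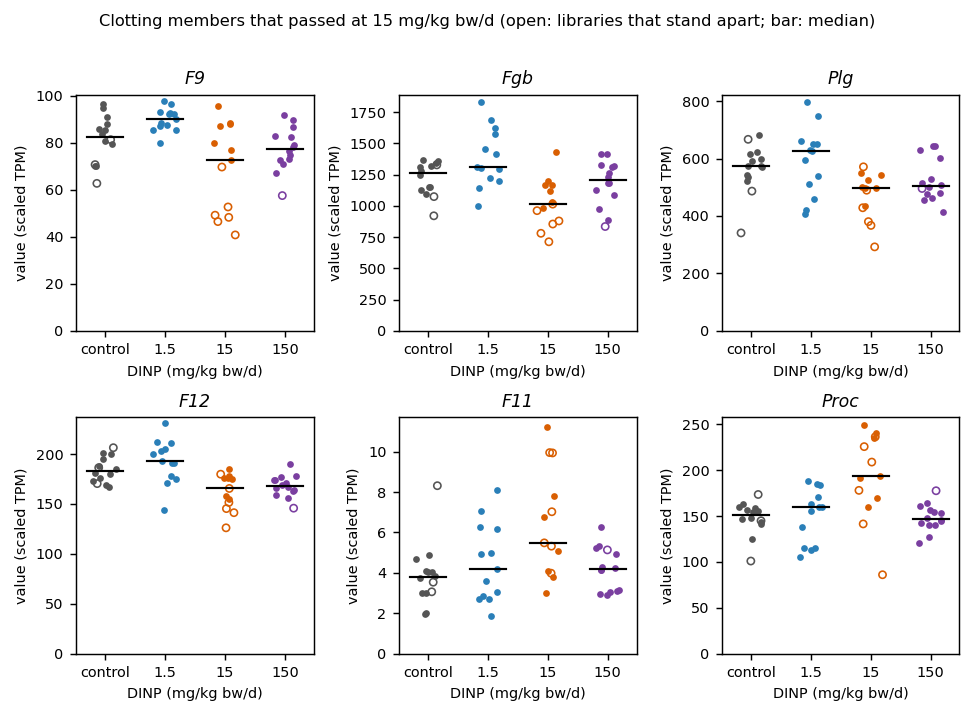
Values of F9, Fgb, Plg, F12, F11 and Proc in each mouse by dose, with the group median as a bar and open points for the libraries that stood apart; each vertical axis starts at 0. At 15 mg/kg the open points of F9 (40.8 to 69.6) lie below all filled points of that group (72.5 to 95.6).

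Among the other clotting factors, F11 rose and F12 fell at 15 mg/kg. F11 (factor XI) ranged from 1.98 to 8.31 in control mice (median 3.79), 1.86 to 8.09 at 1.5 (median 4.20), 3.02 to 11.2 at 15 (median 5.48) and 2.91 to 6.27 at 150 mg/kg (median 4.18). 12 of 13 mice at 15 mg/kg were above the control median (log2 fold change 0.58 ± 0.17, adjusted p = 0.0123; without the 10 libraries 0.55 ± 0.20, adjusted p = 0.116). The mean of F11 over all mice was 4.72, and each library's values are whole multiples of a step of 0.76 to 1.11. The fold changes of F11 thus rest on few steps, and a minimum mean of 5 leaves it out. F12 (factor XII, which starts the contact pathway) ranged from 167 to 206 in control mice (median 183), 144 to 232 at 1.5 (median 193), 126 to 185 at 15 (median 166) and 146 to 190.3 at 150 mg/kg (median 168). 7 mice lay below the lowest control mouse at 15 mg/kg and 7 at 150 mg/kg. The first of these passed (log2 fold change -0.18 ± 0.056, adjusted p = 0.0189; without the 10 libraries -0.092 ± 0.061, adjusted p = 0.451) and the second did not (log2 fold change -0.13 ± 0.055, adjusted p = 0.255).

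F13b, the carrier subunit of the factor that cross-links fibrin, ranged from 46.6 to 68.3 in control mice (median 60.7), 57.2 to 81.9 at 1.5 (median 73.6), 34.6 to 75.3 at 15 (median 53.7) and 58.5 to 76.9 at 150 mg/kg (median 66.1). 9 of 13 mice at 1.5 mg/kg lay above the highest control mouse. The increase fell short of the threshold with all libraries (log2 fold change 0.28 ± 0.079, adjusted p = 0.065) and passed without the 10 (0.26 ± 0.065, adjusted p = 0.0174). Kng1, the source of bradykinin and a cofactor of the contact pathway, ranged from 475 to 675 in control mice (median 609), 583 to 862 at 1.5 (median 713), 436 to 801 at 15 (median 695) and 508 to 723 at 150 mg/kg (median 605). 7 of 13 mice at 1.5 mg/kg exceeded the highest control mouse (log2 fold change 0.25 ± 0.071, adjusted p = 0.0658; without the 10 libraries 0.24 ± 0.062, adjusted p = 0.0242). F5, the cofactor that speeds thrombin formation, ranged from 94.5 to 116 in control mice (median 99.0), 99.5 to 139 at 1.5 (median 113), 65.6 to 135 at 15 (median 107) and 84.7 to 119.6 at 150 mg/kg (median 99.3). All 13 mice at 1.5 mg/kg were above the control median, but no dose passed (log2 fold change 0.18 ± 0.069, adjusted p = 0.244 at 1.5 mg/kg). Klkb1 had group medians of 31.5, 37.6, 33.8 and 33.2 and did not pass.

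Of the 4 anticoagulant genes, Proc rose at 15 mg/kg. Proc encodes protein C, the protease that inactivates factors V and VIII, and ranged from 101 to 174 in control mice (median 151), 105 to 189 at 1.5 (median 159), 86.0 to 249 at 15 (median 193) and 120.1 to 178 at 150 mg/kg (median 147). 9 of 13 mice at 15 mg/kg lay above the highest control mouse and 1 below the lowest. It passed with all libraries (log2 fold change 0.35 ± 0.11, adjusted p = 0.0207) and without the 10 (0.44 ± 0.10, adjusted p = 0.00716), but not with quantile normalization (adjusted p = 0.051) or in a fit of only the 2 groups (adjusted p = 0.0678). Pros1, the cofactor protein S, ranged from 10.6 to 18.5 in control mice (median 13.1), 10.2 to 16.8 at 1.5 (median 13.1), 8.85 to 20.4 at 15 (median 13.3) and 9.88 to 15.9 at 150 mg/kg (median 13.5), and its fold changes lay between -0.0099 and 0.0020. Serpinc1 (antithrombin) ranged from 183 to 243 in control mice (median 227), 192 to 255 at 1.5 (median 241), 151 to 276 at 15 (median 225) and 203 to 251 at 150 mg/kg (median 222), with fold changes from -0.034 to 0.042. Serpind1 (heparin cofactor II) had fold changes from 0.0025 to 0.084. These 3 did not pass at any dose, and the 95% interval at 150 mg/kg was -0.14 to 0.11 for Serpinc1 and -0.18 to 0.16 for Pros1.

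In the fibrinolysis and adhesion group, Plg fell at 15 mg/kg. Plg, the gene of plasminogen, ranged from 341 to 681 in control mice (median 575), 407 to 797 at 1.5 (median 628), 292 to 571 at 15 (median 497) and 414 to 645 at 150 mg/kg (median 505). All 13 mice at 15 mg/kg were below the control median (log2 fold change -0.28 ± 0.10, adjusted p = 0.0467). It did not pass without the 10 libraries (-0.20 ± 0.10, adjusted p = 0.286), and removing 1 mouse ended the call in 18 of 27 cases (adjusted p up to 0.103, without replicate 7 at 15 mg/kg). Serpinf2, the inhibitor of plasmin, ranged from 162 to 349 in control mice (median 244), 158 to 343 at 1.5 (median 227), 179 to 335 at 15 (median 219) and 201 to 334 at 150 mg/kg (median 263), with fold changes from -0.12 to 0.11, none of which passed. Vtn, the adhesion protein vitronectin, ranged from 715 to 1387 in control mice (median 1003), 692 to 1479 at 1.5 (median 1138), 667 to 1189.7 at 15 (median 871) and 708 to 1168 at 150 mg/kg (median 951) and did not pass against control (log2 fold change -0.16 ± 0.10, adjusted p = 0.271 at 15 mg/kg).

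The doses were also compared with each other, in the same fit. Comparisons that share a group are not independent of each other. Between 1.5 and 15 mg/kg 13 members passed, or 27.7% of the members beside 21.4% of all rows. Of these, F13b, Fgb, F9, F12, Plg, Hp and Vtn were higher at 1.5 mg/kg, and Pzp, Itih4, Serping1, F2, Proc and Itih2 were higher at 15 mg/kg; of all rows 10.5% were called higher at 1.5 and 10.9% at 15 mg/kg. The split of 7 to 6 became 12 to 4 with quantile normalization and 9 to 5 after rescaling to the same sum. The differences, 1.5 minus 15 mg/kg, ran from -0.41 ± 0.12 for Serping1 to 0.49 ± 0.16 for Hp, and F13b (log2 fold change 0.41 ± 0.080, adjusted p = 0.000161) and Fgb (log2 fold change 0.45 ± 0.092, adjusted p = 0.000363) lay within this range. When the 10 libraries were left out 6 members passed, F13b, Vtn, Pzp, Itih4, Proc and Hpx, beside 5.88% of all rows. Removing 1 mouse ended the call of Hp (adjusted p = 0.0588, without replicate 8 at 15 mg/kg), of Vtn (adjusted p = 0.0531, without replicate 11 at 1.5 mg/kg) and, in 6 of 26 cases, of Itih2 (adjusted p up to 0.0728, without replicate 9 at 1.5 mg/kg).

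Between 15 and 150 mg/kg 13 members passed, or 27.7% beside 20% of all rows. 11 were higher at 15 mg/kg: Itih4, Serpina3n, Ambp, Pzp, Orm1, F2, Cp, Proc, Itih2, Orm2 and F11. F13b and Lbp were higher at 150 mg/kg. Of all rows 10.1% were called higher at 15 and 9.85% at 150 mg/kg. Itih4 differed by 0.66 ± 0.088 (adjusted p = 2.57e-07), Serpina3n by 0.53 ± 0.089 (adjusted p = 1.8e-05), Orm1 by 0.53 ± 0.11 (adjusted p = 0.000239) and Ambp by 0.37 ± 0.066 (adjusted p = 4.42e-05). Without the 10 libraries 13 members also passed, beside 9.19% of all rows. The 9 members in both sets were Itih4, Serpina3n, Orm1, Ambp, Pzp, Cp, F2, Proc and Lbp. Removing 1 mouse ended the call of F11 in 12 of 27 cases (adjusted p up to 0.0873), of Lbp in 9 (up to 0.0718) and of Orm2 in 2, replicates 5 and 7 at 15 mg/kg (up to 0.0733).

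Between 1.5 and 150 mg/kg 8 members passed, or 17% beside 4.61% of all rows, and all 8 were higher at 1.5 mg/kg, as were 2.06% of all rows. They were Cp (log2 fold change 0.42 ± 0.068, adjusted p = 5.53e-05), Serpina3n (log2 fold change 0.49 ± 0.089, adjusted p = 0.000289), Orm1 (log2 fold change 0.56 ± 0.11, adjusted p = 0.000607), Ambp, F12, Kng1, Orm2 and F5. The lowest and highest doses share no sample in this comparison, and none of the libraries at 1.5 mg/kg stood apart. Without the 10 libraries all 8 passed, together with Itih4, F9 and Serping1, of which Serping1 was lower at 1.5 mg/kg. Of all rows, 7.51% passed in that fit. Of the 47 members 37 had a positive difference, beside 5921 of all 11431 rows. The median was 0.15, beside 0.0078 over all rows. Rescaling to the same sum moved all rows upward as a whole, to a median of 0.087. After it 44 of the 47 members were positive, with a median of 0.25. Cp, Serpina3n and Orm1 passed whichever single mouse was left out, whereas the call was lost in 21 of 27 cases for F5 (adjusted p = 0.0499 with all mice), in 14 for Kng1 and for Orm2, in 10 for F12 and in 2 for Ambp (replicates 5 and 8 at 1.5 mg/kg). The replicate block, which groups mice of the same number, ended the call of F5 as well.

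**Figure D5:**
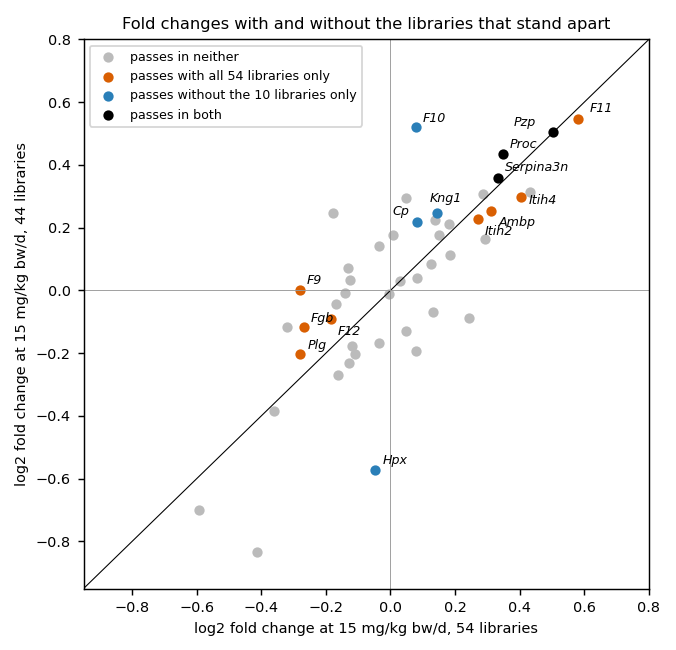
Log2 fold change of each of the 47 members at 15 mg/kg against control with all 54 libraries (horizontal axis) and without the 10 that stood apart (vertical axis); the line marks equal values and colors mark where a member passed. Pzp, Serpina3n and Proc passed in both, Hpx moved from -0.047 to -0.57, F10 from 0.078 to 0.52 and F9 from -0.28 to 0.0018.

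5 of the 47 members, Hpx, Serping1, F5, F9 and F10, had ranges that did not overlap between the 6 libraries at 15 mg/kg that stood apart and the other 7. This is 10.6% of the members beside 9.75% of all rows tested. Serping1 held 39.1 to 71.9 in the 6 and 25.1 to 38.8 in the others, and F5 held 65.6 to 105 and 107 to 135.

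The genes around these proteins were read from 5 lists. Of 18 receptors, kinases and transcription factors that drive the acute-phase response, none passed at 1.5 or 150 mg/kg. Il1rap, a subunit of the interleukin-1 receptor, rose at 15 mg/kg (log2 fold change 0.56 ± 0.15, adjusted p = 0.00741) and Stat3, the transcription factor that carries the interleukin-6 signal, fell there (log2 fold change -0.32 ± 0.090, adjusted p = 0.0125). Neither passed without the 10 libraries (adjusted p = 0.169 and 0.0621). Of 15 tested genes of other acute-phase products, Mbl2, a mannose-binding lectin, fell at 1.5 (log2 fold change -0.32 ± 0.080, adjusted p = 0.0326) and at 150 mg/kg (log2 fold change -0.36 ± 0.079, adjusted p = 0.00453), and passed without the 10 libraries at both doses (adjusted p = 0.00398 and 0.000631); no gene of this list passed at 15 mg/kg.

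Of 11 negative acute-phase proteins, Ttr (transthyretin), Mug2 and Serpina6 (corticosteroid-binding globulin) rose and Ahsg (fetuin-A) fell at 15 mg/kg. Serpina6 changed most (log2 fold change 0.50 ± 0.11, adjusted p = 0.001), and without the 10 libraries Serpina6 and Mug2 still passed (adjusted p = 0.00575 and 0.0411) while Ttr and Ahsg did not (0.663 and 0.489). At 150 mg/kg Trf (transferrin) fell (log2 fold change -0.19 ± 0.050, adjusted p = 0.0234; without the 10 libraries adjusted p = 0.0848), and at 1.5 mg/kg none of the 11 passed.

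Of 12 tested genes for further clotting factors and inhibitors, Kng2 rose at 1.5 mg/kg (log2 fold change 0.31 ± 0.084, adjusted p = 0.046). At 15 mg/kg Proz (protein Z), Cpb2 (which slows fibrinolysis), Hrg (histidine-rich glycoprotein) and Mcfd2 (which helps to export factors V and VIII) rose, with fold changes from 0.29 to 0.51, and no gene of this list passed at 150 mg/kg. Of these 4, Hrg still passed without the 10 libraries (adjusted p = 0.0386). In the vitamin K cycle, Vkorc1l1 rose at 15 mg/kg (log2 fold change 0.44 ± 0.11, adjusted p = 0.00294; without the 10 libraries adjusted p = 0.541), whereas the carboxylase gene Ggcx and the reductase gene Vkorc1 did not pass at any dose.

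Lists of markers of other liver cells were read beside the members. Of all markers tested, Pecam1 of the endothelium passed against control, at 15 mg/kg (log2 fold change -0.52 ± 0.11, adjusted p = 0.000867; without the 10 libraries adjusted p = 0.313), along with Ttr, which is also on the hepatocyte list. The summed markers of liver endothelium were 59.2 to 98.2 (median 79.5) at 15 mg/kg and 72.7 to 96.8 (median 86.5) in control mice, and the summed Kupffer cell markers had group medians of 64.9, 68.0, 66.7 and 68.0. Some of the highest sums were in libraries that stood apart. In control mice the Kupffer cell sum reached 172.2, but 73.83 without those libraries, and the stellate cell sum 342.5, but 182.5. At 15 mg/kg the stellate cell sum reached 371.3, but 176 without them, and the adipocyte sum 49.63, but 5.115. The highest erythroid sum, 3411 at 150 mg/kg, was in a library that did not stand apart. Of the 6 neutrophil markers in the table, Retnlg, Cxcr2, Ngp and Camp had a median of 0, whereas S100a8 and S100a9 had means of 5.1 and 5.58. The neutrophil markers summed to medians of 12.2, 6.67, 11.0 and 8.04 in the 4 groups. The part of these cells in the members' results was not tested.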

How the data were processed

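Liver RNA of 54 mice was sequenced with QuantSeq 3′ mRNA libraries, and per the labels and the study's methods the authors processed the reads through the nf-core/rnaseq pipeline with STAR, RSEM and Salmon on GRCm38; whether counting used the strand is not given in the sources used here. The deposited signal is 1 table of 20162 genes in which every value of a library is a whole multiple of 1 step (tolerance 0.001), as would come from TPM made whole by rounding and then scaled by 1 factor per library; how the authors made the table is not stated further. These are not reads, so no count test was used and the depth is unknown.

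Rows with a mean of at least 1 (11431) were tested on log2(value + 1) with limma 3.58.1 in R 4.3.3, using empirical Bayes moderation with a trend, 4 groups in 1 fit and Benjamini-Hochberg adjustment over all rows; a call needed an adjusted p under 0.05. Mice were grouped by the dose in the labels and are separate animals. The scripts were tested on simulated data. Members that passed in any of the 6 contrasts, and a fixed set of representatives of each role, are described mouse by mouse or by range; the rest are given as ranges, and genes of the lists where they passed against control. Hpx, F10, Saa4, Klkb1, Serpina1e and the 2 sets of mice at 1.5 mg/kg were described after their values were seen. The members and lists were chosen with earlier results of these data known. Relations to Saa1 used log2 values and 100000 permutations, two-sided. Alternatives were 2 other pseudocounts, 2 other filters, 2 scalings, quality weights, robust moderation, a replicate block, a rank test, fits of 2 groups, leaving out each mouse, and leaving out the 10 libraries that stood apart, the last added after the data were seen. Promoter sequences are from RefSeq (GRCm38.p6), which held 38 of the 47 members.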

Additional observations from a re-analysis of the deposited data

Results flagged for a closer look

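For 4 members the responses at 2 doses differed from each other, with fold changes of opposite sign against the same control mice, by limma's test of the difference between the doses. Between 15 and 150 mg/kg the log2 difference was 0.53 for Orm1 (adjusted p = 0.000239; 0.29 and -0.24 against control), 1.03 for Orm2 (adjusted p = 0.0295; 0.43 and -0.60), 0.66 for Itih4 (adjusted p = 2.57e-07; 0.40 and -0.26) and 0.534 for Serpina3n (adjusted p = 1.8e-05; 0.33 and -0.20). Between 1.5 and 150 mg/kg it was 0.56 for Orm1 (adjusted p = 0.000607; 0.32 and -0.24) and 1.16 for Orm2 (adjusted p = 0.043; 0.55 and -0.60). Whatever the signs, 8.51% of the members and 6.73% of all rows were called with a difference beyond 0.5 between 15 and 150 mg/kg. Between 1.5 and 150 mg/kg these shares were 4.26% and 1.64%. Of the fold changes against control, those of Itih4 and Serpina3n at 15 mg/kg passed and none at 150 mg/kg did, with all libraries. Opposite responses against control were therefore not shown for any of the 4 members. The share of all rows with opposite signs was not computed. Orm1, Itih4 and Serpina3n differed between 15 and 150 mg/kg without the 10 libraries that stood apart as well, whereas Orm2 did not.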

How the results depend on the processing

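At 1.5 mg/kg against control the 1 call became 0 with no filter on low values, with quantile normalization, with the Wilcoxon rank-sum test and with a limit of 0.5 on the log2 fold change. It became 2 after rescaling to the same sum or in a fit of 2 groups, 3 with a minimum mean of 5, 4 with quality weights and 5 without the 10 libraries that stood apart. At 15 mg/kg the 11 calls became 7 with no filter, with quality weights or without the 10 libraries, 6 in a fit of 2 groups, 5 with the Wilcoxon rank-sum test and 2 beyond 0.5. At 150 mg/kg the 0 calls became 2 with quantile normalization, rescaling, quality weights or without the 10 libraries, and 1 with the Wilcoxon rank-sum test or a fit of 2 groups. Between 1.5 and 15 mg/kg 13 calls became 6 with the Wilcoxon rank-sum test or without the 10 libraries and 0 beyond 0.5; between 15 and 150 mg/kg 13 became 4 beyond 0.5; between 1.5 and 150 mg/kg 8 became 4 with no filter, 14 after rescaling and 2 beyond 0.5. In these 3 comparisons the calls beyond 0.5 were 0%, 8.51% and 4.26% of the members, beside 7.15%, 6.73% and 1.64% of all rows. F9 at 15 mg/kg changed sign to 0.00181 without the 10 libraries. The cause of these changes was not tested. Leaving out 1 mouse at a time gave 0 to 2, 7 to 12 and 0 to 1 calls at the 3 doses, and 11 to 16, 11 to 15 and 4 to 8 between doses. With a replicate block the 6 counts were 1, 11, 0, 13, 13 and 7; equal numbers did not mark paired mice (mean correlation -0.0025 over 79 pairs, 10 above 0.1). The depth is unknown, so what it limits cannot be given.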
